A study of Mus musculus with 1 sample.

Results

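The 8 genes followed here belong to the Hippo pathway's transcriptional output and its effectors: Ccn1, Ccn2, Ankrd1, Amotl2, Ajuba, Lats2, Tead1 and Yap1. They were chosen by gene symbol and counted in single cells of mouse gastric organoids. They are 8 of the 32285 genes in the count matrix, and all 8 were found there under these symbols. Gastric organoids are stomach epithelium kept as a three-dimensional culture. The data come from 1 library, labelled wild type and untreated, of cells from mouse stomach organoids harvested on day 7 and dissociated for 30 min at 37 °C in 0.05% trypsin-EDTA. The chemistry was a 10x 3′ kit, which reads transcript ends. No other genotype was analysed here, and with 1 library there was no replicate and no test. Every interval below is a 95% interval that covers counting error only.

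The Hippo pathway is a kinase cascade that reads cell contact, shape and tension. When the LATS kinases are active, they phosphorylate the coactivator YAP (Yap1) and its relative TAZ (Wwtr1), which then stay in the cytoplasm. When the kinases are inactive, YAP enters the nucleus and binds TEAD factors, which bring it to DNA. In gut epithelium YAP activity is known for its part in regeneration after injury. Among the 8 genes, Ccn1 and Ccn2 encode secreted matricellular proteins and Ankrd1 an ankyrin repeat protein, and these are the most used readouts of YAP activity. Amotl2, Ajuba and Lats2 encode regulators of the pathway and are also induced by YAP, so they are grouped here as feedback genes. Lats2 encodes one of the LATS kinases and Ajuba a protein that restrains them, so these genes do not all act in one direction. Tead1 and Yap1 encode the DNA-binding partner and the coactivator themselves, so for them the name "target gene" is less apt than "effector".

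TEAD factors are known to bind the hexamer CATTCC, which reads GGAATG on the other strand. The RefSeq promoter table (GRCm38.p6, 250 bases before to 50 after each start site) held promoters for 6 of the 8 genes, 7 promoters in all because Lats2 had 2. Ccn2 and Tead1 were not matched. CATTCC on either strand was found in 6 of these 7 promoters, at least 1 for each of the 6 genes, against 14.7% of all 32851 promoters of that length. The AP-1 motif TGANTCA, which reads the same on both strands and whose last letters CA can be the first letters of CATTCC, was found in 0 of the 7 and in 7.81% of all promoters. Genes of this kind are often chosen because TEAD sites are known near them, so the count describes these windows and is no test. The matches stand in 30-base windows, 5′ to 3′ on the strand of the gene, with the hexamer in capitals.
Ccn1 (chr3:145650071-145650100, minus strand, 103 bases before the start site): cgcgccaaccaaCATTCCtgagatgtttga
Amotl2 (chr9:102717727-102717756, plus strand, 65 bases before): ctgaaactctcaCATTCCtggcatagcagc
Ajuba (chr14:54577830-54577859, minus strand, 186 bases before): cgttgatggataCATTCCacagtgcccctc
Ajuba (chr14:54577808-54577837, minus strand, 164 bases before): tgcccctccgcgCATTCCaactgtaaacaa
Ankrd1 (chr19:36120037-36120066, minus strand, 210 bases before): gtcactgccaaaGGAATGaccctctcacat
Ankrd1 (chr19:36119950-36119979, minus strand, 123 bases before): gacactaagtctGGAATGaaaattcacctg
Lats2 (chr14:57746102-57746131, minus strand, just after the start site): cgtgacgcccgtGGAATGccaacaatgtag
Yap1 (chr9:8004720-8004749, minus strand, 141 bases before): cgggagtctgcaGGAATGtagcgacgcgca

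Over all cells together, the counts of Ccn1 and Amotl2 were the most alike of any pair of the 8 genes, though not in every subset of cells. Both are shown with the whole 250 bases before their start sites, so that the place of the single hexamer in each can be seen.
Ccn1 promoter (GRCm38.p6, chr3:145649986-145650235, minus strand): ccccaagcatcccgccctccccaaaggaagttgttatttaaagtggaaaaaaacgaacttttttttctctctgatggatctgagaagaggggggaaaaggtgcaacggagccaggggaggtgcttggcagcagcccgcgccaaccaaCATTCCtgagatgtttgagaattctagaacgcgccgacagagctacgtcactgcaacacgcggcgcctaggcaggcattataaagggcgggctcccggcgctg
Amotl2 promoter (GRCm38.p6, chr9:102717554-102717803, plus strand): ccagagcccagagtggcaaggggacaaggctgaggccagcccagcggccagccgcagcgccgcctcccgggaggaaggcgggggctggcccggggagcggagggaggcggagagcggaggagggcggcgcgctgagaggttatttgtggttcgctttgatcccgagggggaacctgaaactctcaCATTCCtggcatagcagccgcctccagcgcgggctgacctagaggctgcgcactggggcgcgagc
Of the 17 further genes of a published YAP and TAZ signature, 11 were in the table, and Axl, Crim1 and Ptpn14 held the hexamer, 3 of 12 promoters. Of the 14 upstream Hippo genes, 12 were in the table, and Mob1a, Sav1 and Wwc2 held it, 3 of 13 promoters. Of the immediate early genes described below, Egr2 and Nr4a1 held it, 2 of 22 promoters. The share over all promoters was 14.7%. TGANTCA was found in 1 of the 12 signature promoters, that of F3, and in 0 of the 13 and 0 of the 22, against 7.81% of all promoters.

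The matrix held 1991 barcodes. Cells were the 1892 barcodes with 500 or more genes and no more than 20% of unique molecular identifiers (UMIs) from mitochondrially encoded genes. They carried 20118334 gene UMIs, with a median of 8512.5 per cell (890 to 47183). Epcam, an epithelial marker, had a UMI in 96.6% of cells. The 6 fibroblast or smooth muscle markers had 6 UMIs in all and the 3 endothelial markers 3, with Col1a2, Col3a1, Pdgfrb, Dcn, Cdh5 and Kdr at 0. The library therefore offered no cell type that should lack Ccn1 or Ccn2, and how much free RNA added to their counts was not measured. The 4 immune markers had 83 UMIs, 80 of them from Lyz2.

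A level here is a gene's pooled UMIs divided by all gene UMIs of the same cells, scaled to counts per 1e6 (CPM). The UMIs were counted at the 3′ ends of transcripts, 1 per molecule captured, so CPM were not divided by length. Ccn2 (ENSMUSG00000019997, chromosome 10, 24595442 to 24598683, plus strand) had the highest level, 2022 UMIs or 101 CPM (96.2 to 105). Ccn1 (ENSMUSG00000028195, chromosome 3, 145646976 to 145649981, minus strand) had 1848 UMIs or 91.9 CPM (87.7 to 96.1). The level of Ccn2 was 1.09 times that of Ccn1 (1.03 to 1.17). Both genes together held 59.3% of the UMIs of the 8. Coordinates of genes are from GENCODE release M21 on GRCm38, and all 8 are annotated as protein-coding genes.

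Amotl2 (chromosome 9, 102716672 to 102733418, plus strand), an angiomotin relative that holds YAP at cell junctions, was at 45.2 CPM (42.3 to 48.2). Tead1 (chromosome 7, 112679318 to 112906807, plus strand) was at 41.8 CPM (39.0 to 44.7). These adjacent levels were not separated beyond counting error, with a ratio of 1.08 (0.983 to 1.19). Yap1 (chromosome 9, 7931999 to 8004596, minus strand) was at 16.8 CPM (15.01 to 18.6), so Tead1 was 2.50 times as high (2.20 to 2.84). Transcript levels do not show how much YAP protein was in nuclei.

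The other feedback genes were low. Ajuba (chromosome 14, 54567472 to 54577558, minus strand), a LIM protein that restrains LATS kinases, was at 12.1 CPM (10.7 to 13.7). Lats2 (chromosome 14, 57689662 to 57758388, minus strand), one of those kinases, was at 11.6 CPM (10.1 to 13.2), and the ratio of 1.05 (0.872 to 1.26) did not separate them. Ankrd1 (chromosome 19, 36111961 to 36120099, minus strand) was the lowest at 4.57 CPM (3.69 to 5.61), or 92 UMIs in the whole library. The median over the 16967 genes with a UMI was 5.27 CPM, so 7 of the 8 genes lay above it.

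**Figure D1:**
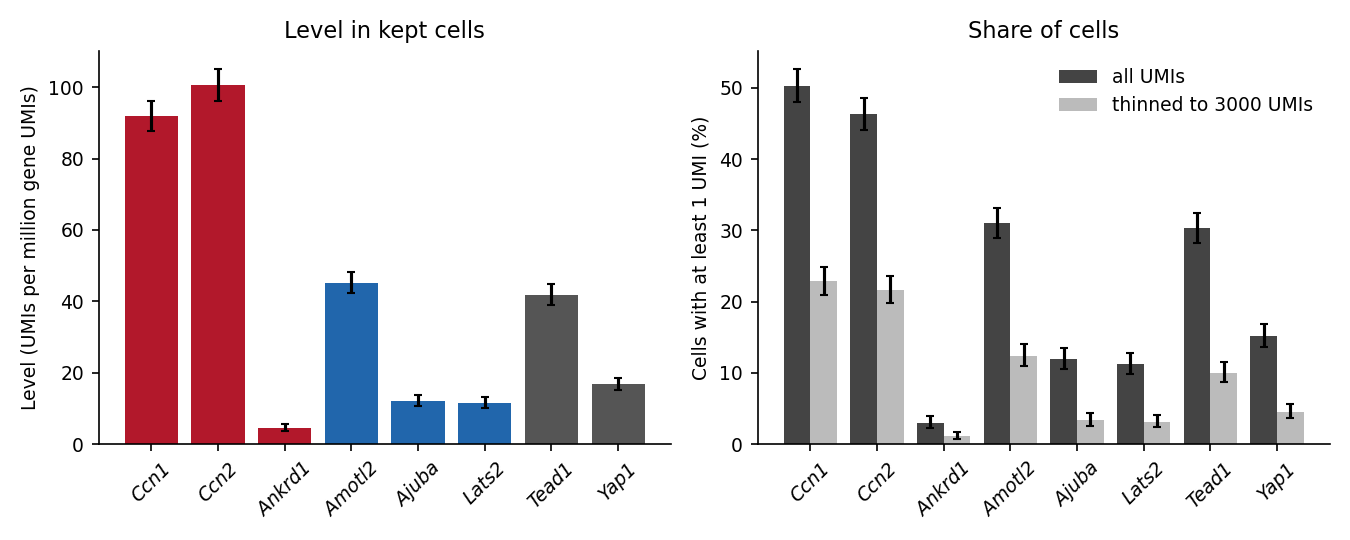
Left, the level of each gene in 1892 kept cells, in CPM, with exact Poisson 95% intervals; right, the percent of cells with at least 1 UMI, from all UMIs (dark bars, 1892 cells) and after thinning each cell to 3000 UMIs (light bars, 1835 cells), with exact binomial intervals. Red bars at left are Ccn1, Ccn2 and Ankrd1, blue bars the feedback genes and grey bars the effectors; Ccn2 and Ccn1 stand at 101 and 91.9 CPM and Ankrd1 at 4.57.

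A UMI of at least 1 of the 8 genes was found in 83.8% of cells, and the median cell held 3 such UMIs. Ccn1 was detected in 952 cells, or 50.3% (48.0% to 52.6%), and Ccn2 in 876, or 46.3% (44.0% to 48.6%). More cells thus held Ccn1 than Ccn2, while Ccn2 had more UMIs. The counts per cell show the same: 222 cells had 3 or more UMIs of Ccn1 and 281 had 3 or more of Ccn2, and the highest cell held 9 and 13. Amotl2 was found in 31.0% of cells, Tead1 in 30.3%, Yap1 in 15.2%, Ajuba in 11.9%, Lats2 in 11.3% and Ankrd1 in 3.01%. When each cell was thinned to 3000 UMIs, which left out 57 shallower cells, the shares were 22.8% for Ccn1, 21.6% for Ccn2, 12.4% for Amotl2, 10.0% for Tead1, 4.52% for Yap1, 3.38% for Ajuba, 3.16% for Lats2 and 1.09% for Ankrd1. A cell without a UMI of a gene is therefore no sign that the gene was silent there. The number of the 8 genes detected in a cell followed depth: the 307 cells with none had a median of 5887 UMIs, and the 8 cells with 7 of them a median of 27234.5. No cell held all 8.

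The related genes of the pathway place these levels. TAZ (Wwtr1), the relative of YAP, was at 28.1 CPM (25.8 to 30.5), above Yap1. Tead1 was the main TEAD transcript, with Tead4 at 6.01 CPM, Tead3 at 3.73 and Tead2 at 1.84. All 14 upstream genes were detected, from Taok2 at 7.01 CPM to Taok3 at 93.5, and the kinase Lats1 was at 15.5 CPM (13.8 to 17.3), above its paralog Lats2. Of the 17 further signature genes, 15 had a UMI and 6 had at least 200: Myof (79.6 CPM), Crim1 (71.4), F3 (56.5), Ptpn14 (45.3), Gadd45a (20.8) and Asap1 (16.5). Axl, a receptor tyrosine kinase often used as a YAP target, had 5 UMIs. Fjx1 and Ccdc80 had none, which by the 3-count rule allows up to 0.159% of cells with a UMI. Of the other CCN family genes, Ccn4 had 6 UMIs and Ccn3, Ccn5 and Ccn6 had none, so Ccn1 and Ccn2 were the main CCN transcripts of this library.

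How far each gene varied between cells was measured as the variance of Pearson residuals, which compare each count with that expected from the cell's depth. A variance of about 1 is what the counting model alone gives. Ccn2 had a variance of 2.35 and Ccn1 of 1.73, and only 3.89% and 7.03% of the 6682 genes with at least 200 UMIs were higher. Amotl2 followed at 1.29, with 15.6% of genes higher. Tead1 was at 1.10, Yap1 at 1.01, Lats2 at 0.934 and Ajuba at 0.917, beside a median of 1.08 over all 6682 genes. After thinning to 3000 UMIs the variances were 1.45 for Ccn2, 1.24 for Ccn1, 1.14 for Tead1, 1.08 for Amotl2, 1.07 for Lats2, 0.997 for Ajuba and 0.954 for Yap1, so Tead1 then stood above Amotl2. A variance near 1 over single cells does not mean an even level, since pooled levels of Tead1, Yap1, Ajuba and Lats2 differed between clusters. Ajuba counts were close to single molecules, with 209 of its 226 cells holding exactly 1 UMI.

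Ankrd1 was the exception among the rare members. Its residual variance was 2.88, although its 92 UMIs kept it below the minimum of 200 for the gene-wide comparison. It was found in 57 cells, 41 of them with 1 UMI, and 5 cells held 3 or more. The highest cell held 12 UMIs, and the next 2 held 6 and 5. Without the highest cell the variance was 2.18 and the level 3.98 CPM. Ankrd1 transcripts were thus uneven between cells, and few cells carried them.

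**Figure D2:**
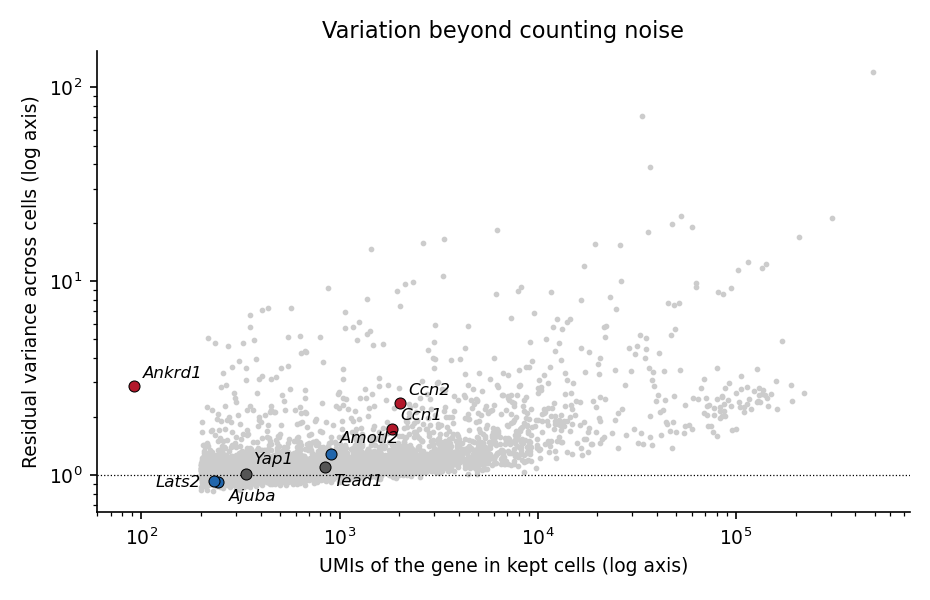
Residual variance of each gene across 1892 cells (log axis) against its UMIs in those cells (log axis); grey points are the 6682 genes with at least 200 UMIs, coloured points the 8 genes, and the dotted line the value of 1 for counting noise. Ccn2 (2.35) and Ccn1 (1.73) lie above most genes of like abundance, and Ajuba, Lats2 and Yap1 lie on the band at about 1.

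Covariation was described by Pearson's r of these residuals over the 1892 cells, with no p-value, since cells of 1 library share the library, its free RNA and the depth correction. The 28 pairs had a median r of 0.0298, from -0.0279 to 0.130, and over all 22321221 pairs of the 6682 genes the median was 0.00492. Other lists of the pathway's surroundings were as high or higher: 12 upstream Hippo genes had a median of 0.0319 and 7 actin and SRF target genes 0.0766, while 6 further signature genes had 0.0193. These are weak values in sparse counts. For scale, the mitotic genes Birc5 and Cdk1, with only 515 and 528 UMIs, had an r of 0.515 in the same cells, Egr3 and Nr4a1 one of 0.223, and Maff and Myc, with 934 and 899 UMIs, one of -0.0115. The highest pairs were Ccn1 with Amotl2 (0.130), Ccn1 with Ccn2 (0.104), Amotl2 with Tead1 (0.0978) and Amotl2 with Ankrd1 (0.0856). How far the Ankrd1 pairs, here and after the regression below, rest on the cell with 12 Ankrd1 UMIs was not examined. Among all gene pairs, 0.359% had a higher r than Ccn1 with Amotl2, and 0.788% a higher r than Ccn1 with Ccn2. Yap1 transcripts had no such relation: their 7 pairs ran from -0.0279 with Ccn2 to 0.0252 with Amotl2.

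Thinning to 3000 UMIs, which discards most molecules, gave a median of 0.00865 over the 28 pairs. Ccn1 with Amotl2 was then at 0.0524, Ccn1 with Ccn2 at 0.0235, and Amotl2 with Tead1 at -0.00223. At that depth 61 cells held both Ccn1 and Amotl2, against 52.1 from their separate shares, and 96 held both Ccn1 and Ccn2, against 90.7.

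Immediate early genes, such as Fos, Egr1 and Atf3, are switched on within minutes by growth factors or by stress, including enzymatic dissociation, and Ccn1 itself was first described as such a gene. The 21 listed immediate early genes were abundant here, with 200287 UMIs or 0.996% of all gene UMIs, and 20 of them had at least 200 UMIs. Ccn1 had an r of 0.277 with their summed counts, Amotl2 0.121, Ccn2 0.0965 and Tead1 0.0771. The other 4 genes lay between -0.0200 for Ankrd1 and 0.0330 for Ajuba. Atf3 (0.237), Fos (0.234) and Fosb (0.226) were the immediate early genes most like Ccn1, and for Ccn2 they were Dusp1 (0.123), Jun (0.119) and Klf6 (0.115). The r of Ccn1 with Fos exceeded its r with every other member.

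When the immediate early sum and depth were regressed out of each residual, the median over the 28 pairs was 0.0309, beside 0.0298 before. Ccn1 with Amotl2 was at 0.105 and Ccn1 with Ccn2 at 0.0761. Amotl2 with Tead1 was at 0.0869 and Amotl2 with Ankrd1 at 0.0887. The pairs of Ccn1 with Ccn2 and with Amotl2 thus differed most between both measures, and Ccn1 with Ankrd1 went from 0.0280 to 0.0352. For comparison, the median over pairs of the 20 immediate early genes went from 0.157 to -0.0179 by the same regression, as removing their own sum must lower it. Within tertiles of cells by the immediate early sum, Ccn1 with Amotl2 had an r of 0.162, 0.132 and 0.0650 in the lower, middle and upper tertile. Ccn1 with Ccn2 went the other way, 0.0150, 0.0745 and 0.137. Ccn2 with Amotl2 was at -0.0309, 0.122 and 0.0511, with no order. The median over the 28 pairs was 0.0613, 0.0258 and 0.00968 in the lower, middle and upper tertile. Each tertile held about 630 cells, and the differences between tertiles were not tested.

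**Figure D3:**
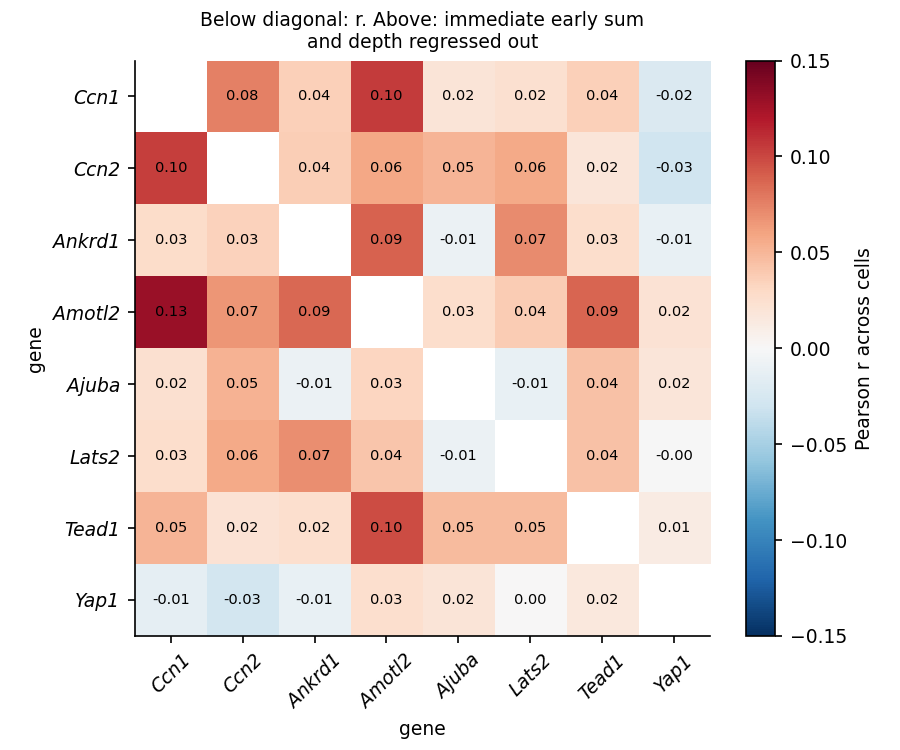
Pearson's r across 1892 cells for each pair of the 8 genes, as coloured cells with the value printed (genes on both axes); below the diagonal r of the residuals, above it r after the summed immediate early counts and depth were regressed out. Ccn1 with Amotl2 is at 0.130 below and 0.105 above the diagonal, and the values of Yap1 run from -0.0304 to 0.0252.

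Pooled levels lean less on single counts, but the split of cells used here itself rests on few UMIs per cell. Cells were put in tertiles by summed Ccn1 and Ccn2 per gene UMI, with limits of 0.595 and 2.31 per 10000 gene UMIs. The tertiles are ranges and not types: 105 cells lay within 10% of the upper limit, and the lower tertile was shallower (median 6968 UMIs against 8004, and 11165.5 in the middle one). Amotl2 was at 32.1, 42.7 and 59.9 CPM in the lower, middle and upper tertile, so upper over lower was 1.86 (1.56 to 2.24). Lats2 was at 8.62, 11.9 and 13.7 CPM, a ratio of 1.59 (1.11 to 2.31). Both genes had their lowest level in the lower and their highest in the upper of the 3 ranges.

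Of the 5 other members with at least 200 UMIs, these 2 were higher by at least 1.5 times, a threshold that 1.83% of the 6682 genes passed. None of the 5 was lower by as much, as 1.59% of genes were. The Lats2 ratio fell short of 1.5 under other choices of cells: it was 1.45 (1.01 to 2.09) with at least 1000 genes and at most 10% mitochondrial UMIs, and 1.45 (0.856 to 2.51) in cells of the tag CMO301. That of Ajuba was past 1.5 in the CMO301 cells, at 1.57 (1.002 to 2.49). Ajuba had a ratio of 1.37 (0.985 to 1.90), Tead1 of 1.16 (0.970 to 1.40) and Yap1 of 0.931 (0.700 to 1.24), and these intervals held 1. Ankrd1, below the minimum, had 10 UMIs in the lower and 53 in the upper tertile, or 1.80 and 8.35 CPM, a ratio of 4.65 (2.34 to 10.3). Without the cell that held 12 UMIs this ratio was 3.61 (1.78 to 8.08). In cells of the tags CMO301 and CMO302 it was 2.97 (1.16 to 9.001) and 7.26 (2.57 to 28.3), and the ratio of Amotl2 was 1.53 (1.20 to 1.97) and 2.37 (1.81 to 3.14).

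When only the tertile lowest in immediate early genes was used, the ratio was 1.53 for Amotl2 (1.06 to 2.24) and 6.35 for Ankrd1 (2.20 to 25.0), while those of Ajuba (1.57), Lats2 (1.55), Tead1 (1.21) and Yap1 (1.31) had intervals that held 1. Among the 6 further signature genes with at least 200 UMIs, Asap1 had a ratio of 1.74 (1.28 to 2.40) over all cells, Crim1 1.37 (1.19 to 1.58), Ptpn14 1.32 (1.11 to 1.57) and Myof 1.23 (1.08 to 1.40). Gadd45a (1.19) and F3 (0.942) had intervals that held 1. None of the 12 upstream Hippo genes with at least 200 UMIs passed 1.5 times, with a median ratio of 1.16 beside 1.02 over all genes. The summed level of the immediate early genes moved along, at 11256 CPM in the upper and 8860 CPM in the lower tertile, and its part in these ratios was examined only by the lower immediate early tertile above.

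Split by immediate early genes instead, Ccn1 was at 56.5, 93.4 and 126 CPM in the lower, middle and upper tertile, a ratio of 2.22 (1.96 to 2.52). Amotl2 had a ratio of 1.64 (1.38 to 1.95). These were the 2 members past 1.5 times, as were 5.37% of all genes. None was lower by as much, as were 2.71% of genes. Ccn2 was at 85.3, 96.8 and 120 CPM, a ratio of 1.40 (1.26 to 1.57), and Tead1 had a ratio of 1.30 (1.09 to 1.55). Ankrd1 went the other way, with 6.02 CPM in the lower and 4.03 CPM in the upper tertile, and its interval held 1 (ratio 0.669, 0.391 to 1.13). Ajuba (1.25), Lats2 (1.19) and Yap1 (1.31) had intervals that held 1 as well.

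**Figure D4:**
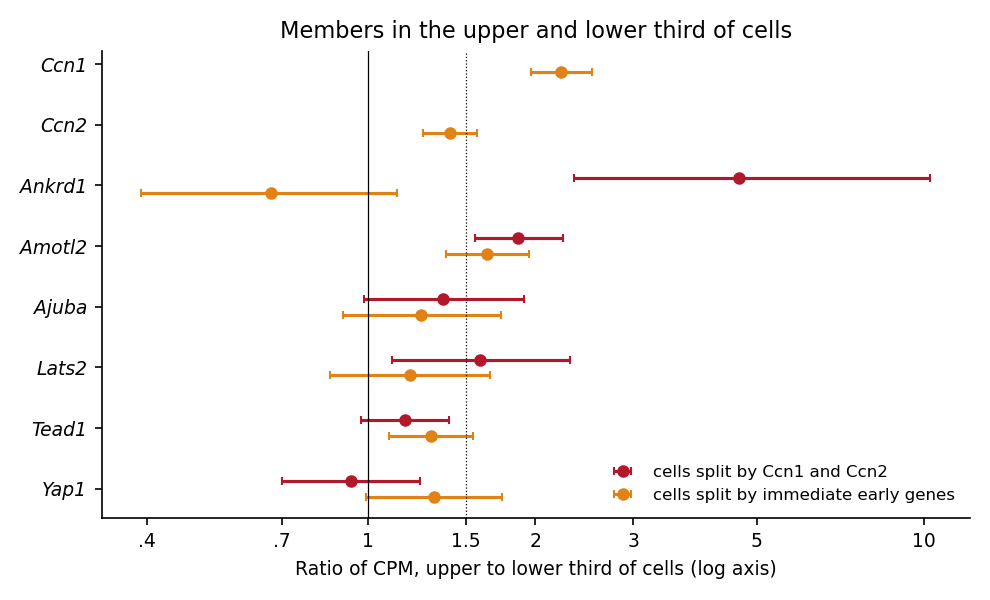
Ratio of CPM between the upper and the lower tertile of cells (log axis) for each gene, with exact conditional 95% intervals; red points, cells split by summed Ccn1 and Ccn2 (which are left out there), orange points, cells split by summed immediate early genes. The solid line is 1 and the dotted line 1.5; Amotl2 lies above 1.5 in both splits (1.86 and 1.64), and Ankrd1 at 4.65 in the first and 0.669 in the second.

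The genes whose residuals were most like those of each member, among genes with at least 200 UMIs that are no members, were ranked by r over the 1892 cells. For Ccn1 they were Hbegf (0.254), Atf3, Fos, Fosb, Dusp5 (0.217), Hes1 (0.202), Ahnak (0.192), Klf6, Egr1 and Anxa1 (0.162). With immediate early genes regressed out, Hbegf, which encodes a ligand of the EGF receptor, had the highest value at 0.154. Dusp5, a phosphatase of ERK, was next at 0.147. Neither gene is in the regressed sum, whereas Myc, which is, remained among the 10 highest at 0.110. Mitochondrial transcripts were also among the 10 highest then, mt-Co3 at 0.116, mt-Co2 at 0.112 and mt-Atp6 at 0.109. Ccn1 had an r of 0.118 with the mitochondrial sum and -0.101 with the ribosomal protein sum, of the size of its values with Ccn2 and Amotl2, and Ccn2 had 0.0768 and -0.0421. Their part in the pairs was not tested. For Ccn2 the list was different: Ahnak (0.168), the calcineurin subunit gene Ppp3ca (0.157), the transcription factor gene Runx1 (0.153), Zfas1, Sgk1 (0.135), Plk2, Bsg, Rpl23a, Sema3c and Zfp652 (0.124). For the sum of Amotl2, Ankrd1, Ajuba and Lats2 it was Ccnd1 (0.209), Ahnak (0.195), Actb (0.192), Golim4, Cav1 (0.157), Anxa3, Cgnl1, Tgfbr2, Timp3 and Ctnna1 (0.148).

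Among the single members, Amotl2 was most like Ccnd1 (0.176), the gene of cyclin D1, then Ahnak and the caveolae gene Cav1 (0.165). Tead1 was also most like Ccnd1 (0.167), then Sptbn1 (0.159) and App (0.142). Yap1 was most like Mecom (0.123), Luc7l2 and Ap1b1, Lats2 most like Map4 (0.116), Colgalt1 and Gm26532, and Ajuba most like F2rl1 (0.107), Ahnak and Crim1 (0.105). Ahnak, a large scaffold protein gene at the cell cortex, was in 5 of these 8 lists, 1 of them that of the sum, and Ccnd1 in 3. The median r over all 6675 genes that are no members was 0.00259 for Ccn1 and 0.00260 for Ccn2.

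Actin and its regulators are often read beside YAP. Among 11 listed actin and SRF target genes, 7 had at least 200 UMIs. Amotl2 had an r of 0.118 with Actb and Ccn1 one of 0.122, whereas Ccn2 was at -0.0303 with Actb and -0.0689 with Actg1. With Vcl and Tpm4 of the same list Ccn2 was at 0.0629 and 0.0619, and Ccn1 at 0.0601 and 0.0270. Ankrd1 had an r of 0.185 with Actb and 0.182 with Tpm1, and these rested on 1 cell: without the cell of 12 UMIs they were 0.0788 and 0.0717.

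Clusters were made without the 8 genes, the listed pathway genes, the immediate early genes, the genes of the phase calls and the listed proliferation markers. There were 8, of 508, 375, 329, 248, 195, 108, 65 and 64 cells from cluster 1 to cluster 8, and they are called by number and leading genes: Khdc1b and Nav3 in cluster 1, Sprr1a and Ly6m in cluster 2, AC168977.1 and 2610528A11Rik in cluster 3, Psca and Klra4 in cluster 4, Rnase1 and Aox3 in cluster 5, Aspm and Dlgap5 in cluster 6, Ccl20 and Cxcl2 in cluster 7, and Cyba and Reg3g in cluster 8. Cluster 8 held 70 of the 88 Y-linked UMIs of the library, although the labels describe 1 sample, so main values are also given without it. Over all kept cells the X-linked gene Xist had a UMI in 76.7%, at 478 CPM. Where the cells of cluster 8 came from was not tested. Levels between clusters are a description, since the clusters come from other genes of these same cells.

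No cluster lacked Ccn1 or Ccn2. Ccn1 was highest in cluster 1 at 117 CPM (108 to 126) and lowest in cluster 8 at 55.6 CPM (42.1 to 72.1), and between 72.7 CPM in cluster 3 and 96.1 in cluster 7 elsewhere. Ccn2 was highest in cluster 2 at 127 CPM (117 to 137), beside 110 in cluster 1 (102 to 119), and lower in cluster 6 at 51.2 (40.2 to 64.3) and cluster 8 at 42.9 (31.2 to 57.6). The highest and the lowest cluster of each gene were picked from these same levels. Their ratio is at least 1 by that choice, which the intervals do not cover. The ratio of the highest to the lowest cluster was 2.10 for Ccn1 (1.60 to 2.81) and 2.95 for Ccn2 (2.17 to 4.10). Without cluster 8 these were 1.61 (1.36 to 1.92) and 2.47 (1.94 to 3.19), with cluster 3 and cluster 6 the lowest, and the ratio of Tead1 went from 3.12 to 2.91. The relative order of both genes thus differed between clusters: in clusters 1, 5, 6, 7 and 8 Ccn1 had the higher value, and in clusters 2, 3 and 4 Ccn2 did, although the intervals of both genes overlapped in clusters 1, 4, 5, 7 and 8.

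Amotl2 was highest in cluster 1 at 59.3 CPM (53.3 to 65.8) and lowest in cluster 3 at 27.9 (21.5 to 35.7). Tead1 was lowest in the same cluster 3, at 19.1 CPM (13.8 to 25.7), and at 59.5 CPM in cluster 8 (45.5 to 76.5), 55.4 in cluster 6 and 51.8 in cluster 1. Cluster 3 was the shallowest, with a median of 6051 UMIs per cell. Yap1 ran from 9.75 CPM in cluster 3 (6.11 to 14.8) to 20.5 in cluster 1 (17.0 to 24.5). Ajuba was at 16.7 CPM in cluster 1 and 5.42 in cluster 5, and Lats2 at 14.5 CPM in cluster 6 and 3.38 in cluster 5, from 8 and 5 UMIs in cluster 5.

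Ankrd1 was highest in cluster 6, at 18.0 CPM (11.8 to 26.4), from 26 UMIs in 8 cells. This is the cluster led by the mitotic genes Aspm and Dlgap5, and 99.1% of its cells were called S or G2/M. Aspm was not among the cell cycle genes removed before clustering, and cluster 6 and the phase call overlap. Of the 26 Ankrd1 UMIs, 12 came from 1 cell, and without it the level was 9.81 CPM (5.36 to 16.5). Another cell of cluster 6 held 5 UMIs and stayed in that value. In the other clusters Ankrd1 lay between 2.22 CPM in cluster 3 and 7.56 in cluster 4 (4.32 to 12.3), where 1 cell gave 6 of 16 UMIs.

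**Figure D5:**
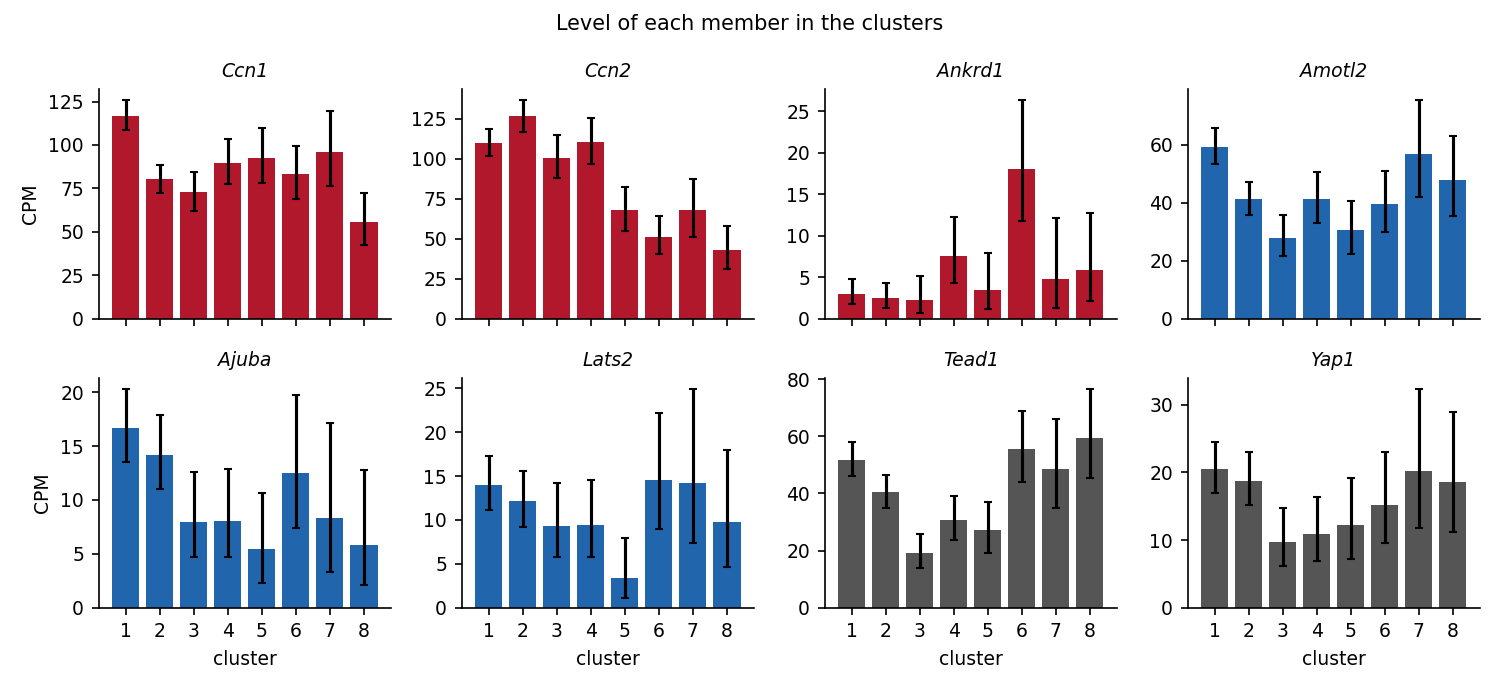
Level of each gene in CPM (vertical axes, each from 0) in the 8 clusters (horizontal axis), with exact Poisson 95% intervals over counting error. Ccn2 is highest in cluster 2 (127 CPM) and low in clusters 6 and 8, Tead1 is lowest in cluster 3 (19.1 CPM), and Ankrd1 is highest in cluster 6 (18.0 CPM, of which 1 cell gave 12 of 26 UMIs).

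The 448 cells in S or G2/M by their phase call were compared with the 1444 in G1, at median depths of 8328.5 and 8606.5 UMIs. None of the 7 members with at least 200 UMIs was past 1.5 times in either direction, with 4.67% of all genes higher and 0.898% lower by as much. Ccn2 was at 73.1 CPM in cells called S or G2/M and 109 CPM in those called G1, a ratio of 0.673 (0.597 to 0.756). Ccn1 had a ratio of 0.931 (0.832 to 1.04), Amotl2 of 0.927, Ajuba of 1.06, Lats2 of 1.08, Tead1 of 1.10 and Yap1 of 0.953, and all these intervals held 1. Ankrd1 was at 9.25 CPM in the former and 3.17 CPM in the latter, a ratio of 2.92 (1.89 to 4.49), and 2.11 (1.30 to 3.38) without its highest cell. These calls rest on scores and took in 62.5% of cluster 8, where Ccn2 was lowest, and without that cluster the Ccn2 ratio was 0.730 (0.645 to 0.824). When cells with a UMI of Mki67 or Top2a (521, median 11661 UMIs) were compared with the rest (1371, median 7780), Ccn1 was at 0.907 times (0.821 to 0.9998), an interval just under 1, Ccn2 at 0.849 times (0.771 to 0.933), Ankrd1 at 1.85 times (1.20 to 2.85) and Tead1 at 1.30 times (1.13 to 1.497). The immediate early sum was 8506 CPM in cells called S or G2/M and 10391 CPM in those called G1, and its part in the Ccn2 ratio was not tested.

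In cluster 8, Ccn1 was at 0.593 times the other clusters together (0.447 to 0.772) and Ccn2 at 0.414 times (0.3 to 0.558), while Tead1 was at 1.46 times (1.10 to 1.89) and Amotl2 at 1.06 times (0.779 to 1.42). With Ajuba at 0.470 times (0.171 to 1.04), an interval that held 1, 3 members were lower by at least 1.5 times, as were 16.3% of all genes, so this share says little about the members. None was higher by as much, as were 17.7% of genes. The immediate early sum was also lower in cluster 8, at 5066 CPM against 10218. Leaving cluster 8 out gave tertile ratios by Ccn1 and Ccn2 of 1.90 for Amotl2 (1.57 to 2.30), 1.56 for Lats2 (1.07 to 2.29), 1.22 for Tead1 (1.01 to 1.48, against 0.970 to 1.40 over all cells), 1.30 for Ajuba (0.934 to 1.83), 1.004 for Yap1 (0.746 to 1.35) and 3.08 for Ankrd1 (1.5 to 6.95). Amotl2 and Lats2 were past 1.5 times higher there, as were 1.98% of genes, and no member was lower by as much, as were 1.12%. In the split by immediate early genes without cluster 8, Ccn1 (2.14) and Amotl2 (1.70) were past 1.5 times higher, as were 5.4% of genes, and no member was lower by as much, as were 1.2%.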

How the data were processed

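One single-cell library was analysed. The deposited matrix holds raw UMI counts per gene and barcode, written by Cell Ranger 6.1.2 per the file headers, and the design text names GRCm38/mm10 as the genome. The authors' annotation is not given in the sources used here. The features and barcodes files carry names and are otherwise non-numeric. The 12 multiplexing tags in the matrix were kept out of all gene sums.

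The 8 genes and the lists were chosen with earlier results of these data known. Cells needed at least 500 genes and at most 20% mitochondrial UMIs. Scrublet (scanpy 1.11.5) called 12 of 1892 cells doublets (0.634%), and they were kept, with their removal as an alternative. Residuals were analytic Pearson residuals (negative binomial, theta 100), computed with numpy 2.4.6. Clusters used ln(1 + UMIs per 10000), 2000 variable genes, 30 components, 15 neighbours and Leiden clustering (leidenalg 0.10.2) at resolution 0.6. Phases were called with scanpy. Intervals are exact Poisson (CPM), Clopper-Pearson (shares) and conditional binomial (ratios), from scipy 1.17.1. Named genes are the members, the lists, the 10 or 3 most alike genes and leading genes of clusters. The steps were tested on simulated data. Genes on the opposite strand overlap Ccn2, Tead1 and Yap1 in GENCODE M21 and are in the matrix, and whether the counting used strand is not given in the sources used here, so reads of the partners may be mixed. The protein-coding gene Gm49361 overlaps Lats2 on the same strand and is not in the matrix. Whether its reads were counted as Lats2 was not tested.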

Additional observations from a re-analysis of the deposited data

Results flagged for a closer look

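Counts of multiplexing tags, which no gene level uses, were above 0. In 56.1% of kept cells the leading tag was CMO301, and in the rest CMO302, although the labels describe 1 sample and tie no suspension to a tag. The summed level of the 8 genes was close between the cells of both tags, with a ratio of CMO301 to CMO302 of 0.973 (0.926 to 1.02). The interval of each of the 8 genes held 1, with ratios from 0.673 for Ankrd1 (0.436 to 1.04) to 1.02 for Ccn1 (0.932 to 1.12). For Ankrd1, with 42 and 50 UMIs, such an interval does not show a close level. The r of Ccn1 with Ccn2 was 0.0570 in cells of CMO301 and 0.163 in cells of CMO302, a difference that was not tested.

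The 99 barcodes left out by the cell filter also held UMIs of these genes. They carried 118582 gene UMIs, with a median of 901, and 62 UMIs of the 8 genes, or 523 CPM (401 to 670), above the 324 CPM (317 to 332) of the kept cells. Amotl2 had 14 UMIs there, or 118 CPM (64.5 to 198), Tead1 12, or 101 CPM (52.3 to 177), and Yap1 7, or 59.0 CPM (23.7 to 122), all 3 above their levels in kept cells, while Ccn1 (126 CPM, 70.8 to 209) and Ccn2 (101 CPM, 52.3 to 177) had intervals that held theirs.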

How the results depend on the processing

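Across 28 alternatives, 178 values of 32 results were recomputed, and those added after the data had been seen were thinning of the tertiles, removal of cluster means, use of the lower immediate early tertile for ratios, omission of Ccn1 and Ccn2 from the cluster ratio and of the highest Ankrd1 cell, and the other cycling call and omission of cluster 8 for Ccn1 and Ccn2. Among summary values, 38 stayed within their interval (or within 1.5 times for correlations and variances) and 12 moved, with none reversed. Of the single-gene results 111 stayed, 14 moved and 3 reversed. The share of cells with a UMI of any of the 8 genes, 56.8% at 3000 UMIs, was 72.6% at 5000 UMIs and 83.8% without thinning, as more UMIs per cell must give. The median pairwise r was 0.00865 on thinned residuals and 0.0112 as Spearman's rho after thinning, a setting that changes measure and depth together. It was 0.0613, 0.0258 and 0.00968 in the lower, middle and upper immediate early tertile, against 0.0309 with those genes regressed out. Amotl2 with Tead1 reversed after thinning (-0.00223, and -0.00467 by rank), and Ccn2 with Amotl2 in the lower immediate early tertile (-0.0309). For the summed other 6 genes, the upper to lower ratio by Ccn1 and Ccn2, 1.44, was 1.61 by quintiles, 1.27 by Ccn2 alone and 1.26 after thinning (1.01 to 1.56). The ratio by immediate early genes, 1.57 for all 8 genes, was 1.78 by quintiles. The highest to lowest cluster ratio of the summed genes, 1.62, was 1.33 at resolution 0.3 and 2.17 without Ccn1 and Ccn2. The cycling to G1 ratio, 0.897, was 0.999 when cells with a UMI of Mki67 or Top2a were called cycling. For the remaining shifts the cause was not tested. Depth limits the rare genes, such as Ankrd1 with 92 UMIs, 12 of them from 1 cell. No paired analysis was possible because a single library has no partner.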

Other observations

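Of the 4 listed markers of gastric pit cells, Tff1, Gkn1 and Gkn2 had lower levels where Ccn1 and Ccn2 were high, with and without cluster 8, and Muc5ac only with cluster 8 included. The pattern was picked out after the data had been examined. Tff1, a secreted trefoil peptide, was at 91.9 CPM in the upper and 794 CPM in the lower tertile by Ccn1 and Ccn2, a ratio of 0.116 (0.106 to 0.126). In cluster 8 Tff1 was at 4079 CPM, against 104 CPM elsewhere. Without cluster 8 the ratio was 0.584 (0.521 to 0.654). Gkn1, a gastrokine, had a ratio of 0.143 (0.120 to 0.169) over all cells and 0.270 (0.223 to 0.326) without cluster 8, and Gkn2 one of 0.193 and 0.693 (0.534 to 0.896). The ratios of Tff1 and Gkn1 without cluster 8 were past 1.5 times lower, as were 1.12% of genes. The pit mucin gene Muc5ac had a ratio of 0.266 over all cells, and 20 UMIs in the upper and 16 in the lower tertile without cluster 8, a ratio of 1.07 (0.526 to 2.21). Splitting by immediate early genes gave like values for the same cells, 0.122 for Tff1 and 0.158 for Gkn1, and 0.613 and 0.295 without cluster 8. Both splits use the same cells.

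The epithelial keratin gene Krt18 was level across the tertiles by Ccn1 and Ccn2 without cluster 8, with an interval of 0.977 to 1.03, as was the water channel gene Aqp5 at 0.998 times (0.964 to 1.03). The immediate early genes of that split past 1.5 times over all cells were Myc at 1.81 (1.52 to 2.17) and Maff at 1.53 (1.29 to 1.83).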
